A study of Mus musculus with 5 samples.

Results

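The genes examined here encode the nuclear subunits of complexes II, III, IV and V of the mitochondrial respiratory chain. They were the rows of the deposited expression table named Sdha, Sdhb, Sdhc, Sdhd, Cyc1 or Uqcrfs1, or with a name that starts with Uqcr, with Atp5, or with Cox and a digit from 4 to 8. The rule found 48 of the 24046 genes in the table, of which 4 belong to complex II, 9 to complex III, 18 to complex IV and 17 to complex V. No measured value entered the rule. It also takes in genes that are no structural subunit, such as Cox7a2l, a factor of the supercomplexes of complexes III and IV, Atp5s, the coupling factor B of ATP synthase, and Atp5sl, which the genome annotation used here names Dmac2.

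The study deleted Syncrip, which encodes a protein that binds RNA, in mouse blood-forming cells and sequenced the RNA of hematopoietic stem cells (HSCs). All donor marrow carried Syncrip flox/flox alleles. The donors of the 3 WT libraries were Mx1 Cre- and those of the 2 KO libraries (KO 2 and KO 3) were Mx1 Cre+. Marrow was transplanted into CD45.1 congenic mice, every recipient was given polyinosinic:polycytidylic acid (pIpC), and CD45.2+, Lin-, Sca1+, cKit+, CD150+, CD48- cells were sorted 9 weeks after transplantation and 3 weeks after pIpC. pIpC induces interferon and thereby the Mx1 promoter that drives Cre, which acts in all interferon-responding donor cells and not in HSCs alone. The labels give no age of the mice and do not state how many mice stand behind a library, so that p-values measure the spread between these libraries, which may in part be technical.

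The deposited values, called signal here, are read numbers scaled by 1 factor per library, and the whole reads could be recovered. The WT libraries held 21748781 to 22779536 reads, KO 2 held 18308876 and KO 3 held 12539599. The signal of Syncrip was 1944, 1440 and 1794 in the WT libraries (listed here and below in the order WT 1, WT 2, WT 3) against 294 in KO 2 and 343 in KO 3, as the labels say (log2 fold change -2.43 ± 0.22 (SE), adjusted p = 0.0352). Transcripts of the sorting markers were present in all libraries, with Kit at 8007 to 10740 and Slamf1, the gene of CD150, at 195.4 to 522.4, but Cd48, a marker of the cells that the gate leaves out, was also found at 601 to 768 in WT, 460 in KO 2 and 191 in KO 3. A list of 7 neutrophil and granule genes took 5.2% to 6.27% of the reads in WT, 4.66% in KO 2 and 2.3% in KO 3. A list of 4 megakaryocyte genes took 0.0198% to 0.0354% in WT, 0.0371% in KO 2 and 0.0824% in KO 3 and was thus highest in KO 3. The part of these cell types in the results below was not tested. KO 2 stood apart by transcripts of fat cells: a list of 7 adipocyte genes summed to 128 to 276 in WT and 88.1 in KO 3 but to 14800 in KO 2, and 6 brown adipocyte genes that are no members summed to 150 to 246 in WT, 106 in KO 3 and 9270 in KO 2. The adipocyte sum of KO 2 came from Fabp4 (7687), Car3 (3361), Cfd (2164), Adipoq (959) and Plin1 (621). Of the same list, Lep was at 0 in KO 2 and Retn at 9.25, near its 8.68 in WT 2. The defining brown fat gene Ucp1 was at 5622 in KO 2 and at 0 in each of the other libraries. For this reason each result is given by library.

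Complex II oxidises succinate and passes the electrons to ubiquinone, complex III passes them on to cytochrome c, complex IV passes them from cytochrome c to oxygen, and complex V, the ATP synthase, uses the proton gradient that complexes I, III and IV build to make ATP. Complex II has nuclear-encoded subunits only, whereas complexes III, IV and V combine them with a few made from mitochondrial DNA. HSCs rely largely on glycolysis while quiescent and need mitochondrial respiration when they divide and differentiate. Several subunits of complex IV come in pairs of isoforms, of which 1 is made in nearly all cells and the other in muscle, brown fat, lung or testis.

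The promoters of these isoform pairs differ in sequence, and they are shown because Cox8b and Cox7a1, the restricted genes of 2 such pairs, differed more between libraries than any other member. The bases before the start sites were taken from RefSeq (build GRCm38.p6), where 34 of the 48 members matched, and stop at the start site of the gene in the GENCODE annotation where that lies further upstream. Capitals mark the motifs that were searched on both strands: GCGCANGCG for NRF1, CCGGAAG for GABP, ANATGGCG for YY1, CAAGGTCA for ERR, TGACGTCA for CREB, CCAAT for NF-Y and TATAAA for the TATA box. Cox8a and Cox7a2 are the isoforms of most tissues, Cox8b and Cox7a1 those of muscle and brown fat, and Cox6a1 and Sdhd are members with motifs for NRF1, a general activator of respiratory chain genes.

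Cox6a1, chr5:115348982-115349208, minus strand: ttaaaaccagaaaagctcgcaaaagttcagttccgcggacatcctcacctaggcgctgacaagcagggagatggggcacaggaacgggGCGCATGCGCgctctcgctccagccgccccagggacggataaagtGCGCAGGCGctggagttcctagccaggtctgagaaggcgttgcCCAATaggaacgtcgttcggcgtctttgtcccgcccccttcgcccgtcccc
Sdhd, chr9:50603850-50604099, minus strand: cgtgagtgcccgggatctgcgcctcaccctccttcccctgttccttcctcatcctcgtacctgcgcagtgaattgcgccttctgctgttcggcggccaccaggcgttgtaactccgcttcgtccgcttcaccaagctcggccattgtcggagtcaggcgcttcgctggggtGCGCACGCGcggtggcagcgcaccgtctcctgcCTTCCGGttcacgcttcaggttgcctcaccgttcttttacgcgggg
Cox8a, chr19:7217617-7217866, minus strand: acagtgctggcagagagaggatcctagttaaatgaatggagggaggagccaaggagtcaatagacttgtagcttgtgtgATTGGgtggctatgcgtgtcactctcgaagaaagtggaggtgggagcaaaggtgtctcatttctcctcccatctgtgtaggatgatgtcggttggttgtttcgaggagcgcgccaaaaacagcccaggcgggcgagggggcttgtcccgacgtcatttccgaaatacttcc
Cox8b, chr7:140900447-140900696, minus strand: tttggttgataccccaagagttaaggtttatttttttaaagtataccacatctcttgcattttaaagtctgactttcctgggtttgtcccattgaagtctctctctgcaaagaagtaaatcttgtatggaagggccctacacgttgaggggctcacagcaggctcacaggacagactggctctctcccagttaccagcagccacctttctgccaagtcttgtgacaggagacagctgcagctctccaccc
Cox7a2, chr9:79759879-79760103, minus strand: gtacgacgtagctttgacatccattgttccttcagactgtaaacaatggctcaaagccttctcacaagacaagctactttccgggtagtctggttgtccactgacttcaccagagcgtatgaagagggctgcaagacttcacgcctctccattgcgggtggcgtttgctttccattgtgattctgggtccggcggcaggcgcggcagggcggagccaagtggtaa
Cox7a1, chr7:30183921-30184143, plus strand: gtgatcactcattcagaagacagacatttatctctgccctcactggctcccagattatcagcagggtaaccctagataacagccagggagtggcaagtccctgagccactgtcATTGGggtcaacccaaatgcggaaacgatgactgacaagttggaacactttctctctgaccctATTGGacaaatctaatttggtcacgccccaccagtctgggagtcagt

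Cox6a1 held a pair of overlapping NRF1 motifs with another downstream, an NF-Y motif and, in the 23 bases before its RefSeq start that are not printed, a GABP motif. Sdhd held an NRF1 and a GABP motif. Within 250 bases before the start, the NRF1 motif stood in 23.5% of the 34 members (8 genes) against 5.86% of the 27025 genes with a promoter in the table, and the GABP motif in 26.5% of the members (9 genes) against 7.83%. An NF-Y motif was found in 55.9% of the members and 37.5% of all genes. The motifs of YY1 (5.88% against 2.39%), ERR (5.88% against 1.51%), CREB (2.94% against 1.77%) and the TATA box (5.88% against 14.3%) were each present in 1 or 2 members. Neither the NRF1 nor the GABP motif was found before Cox8b, Cox7a1, Cox7b2 or Cox6b2, or before the common isoforms Cox8a and Cox7a2. Either motif stood before 13 of the 30 matched members that are not tissue-restricted (43.3%) and before 12.7% of all genes. Cox8b had 1 CpG dinucleotide in its 250 bases and Cox7a1 had 4, against 11 in Cox8a and 14 in Cox7a2. The median per gene was 14 CpG in the 30 members that are not restricted and 6 in all genes. The part of CpG content in the motif shares was not tested. The log2 fold changes of KO against WT, described next, ran from -0.12 to 0.79 in the 8 members with an NRF1 motif (median 0.21) and from -0.19 to 1.09 in the 23 tested members without it (median 0.43). The medians with and without the motif were 0.30 and 0.41 for GABP and 0.21 and 0.47 for NF-Y, and these differences were not tested. A match is a run of letters and no measured binding.

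Of the 48 members, 43 passed the filter of a signal of at least 10 in at least 2 libraries. Cox6a2, Cox7a1, Cox7b2, Cox8b and Cox8c did not. No member passed the test. Most members were above their WT mean in KO 2, whereas the median of KO 3 lay inside the range of the WT libraries. The median log2 fold change was 0.31 over the members and 0.02 over all 13661 genes tested, with 32 members above 0 and 11 below. Measured against the mean of the WT libraries on the log2(signal + 1) scale, the median of the members was 0.59 in KO 2 and 0.13 in KO 3. The WT libraries, each set against the mean of the other WT libraries, had medians of 0.20 (WT 1), -0.34 (WT 2) and 0.10 (WT 3). KO 2 therefore stood above all WT libraries, whereas KO 3 lay between WT 3 and WT 1. In KO 2, 40 of the 43 members were above their WT mean, and in KO 3 this was so for 25. The members took 1.04%, 0.874% and 0.992% of the reads of the WT libraries, 1.37% of KO 2 and 1.09% of KO 3. In bulk RNA, more cells with a transcript and more of the transcript per cell cannot be told apart.

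At an adjusted p under 0.05, limma called 0 of the 43 members (background over all genes tested 0.00732%) and edgeR on the recovered reads called 0 (background 0.0146%). Before adjustment, 17 members (39.5%) were higher in KO with a limma p under the threshold, where the background was 13.3%, and 0 were lower, where it was 14.5%. DESeq2, which the submitters' processing notes name, called 11 of 42 members higher (background 9.37%) and 0 lower (background 9.58%), and gave no adjusted p for Cox4i2. The 11 members were Sdhb, Uqcrc1, Uqcr10, Uqcr11, Uqcrq, Cox5b, Cox6a1, Cox7a2l, Cox8a, Atp5d and Atp5g2. In 21 members (48.8%) both KO libraries lay above all WT libraries, as they did in 23.9% of all genes tested, and in Atp5s alone both lay below (background 23.2%). Without KO 2, where KO 3 stands alone and is taken to vary like WT, limma called Uqcrq, Cox5b, Cox8a and Atp5d higher (background 9.9%) and Uqcrc2 and Uqcrb lower (background 12.2%). In that fit the calls among the members went in both directions.

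**Figure D1:**
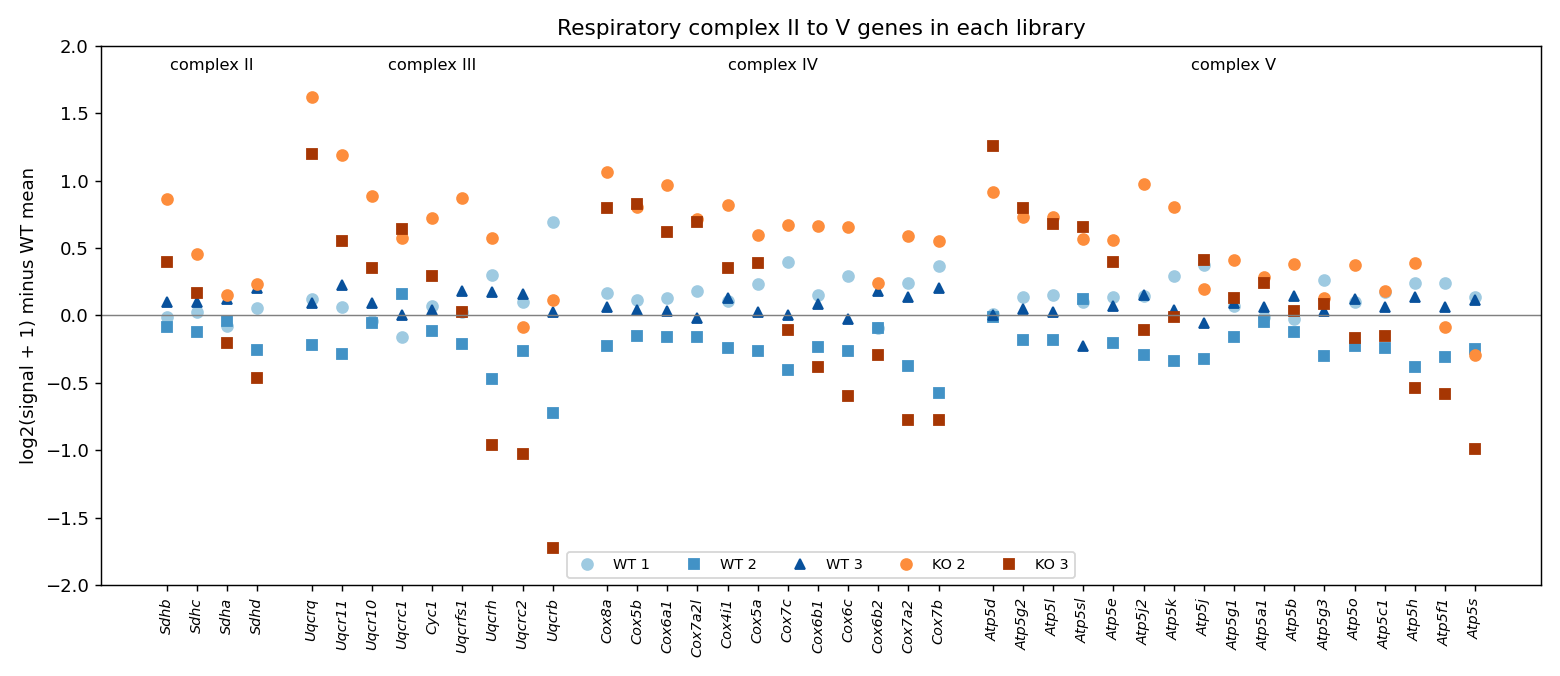
Difference of each tested member from its WT mean on the log2(signal + 1) scale (vertical axis), by gene and complex (horizontal axis), with 1 symbol per library; Cox4i2, at most 30.4 in any library, is left out. KO 2 was above the WT mean in most genes, with Uqcrq the farthest at 1.62, whereas KO 3 ranged from -1.72 in Uqcrb to 1.26 in Atp5d.

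**Figure D2:**
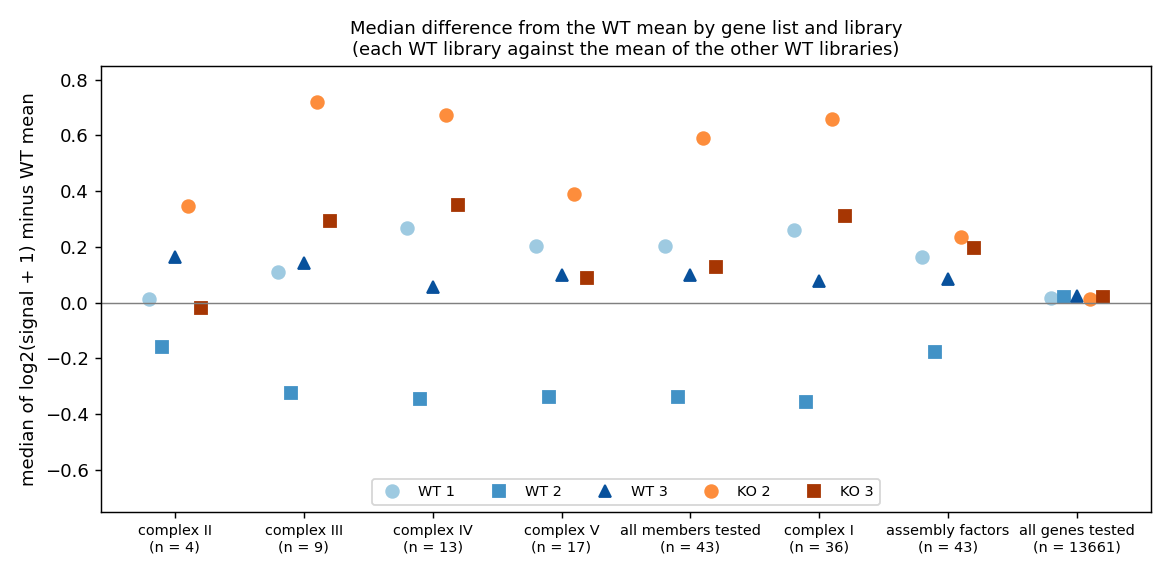
Median difference from the WT mean (log2 scale, vertical axis; a WT library is set against the mean of the other WT libraries) for each complex, all members tested, complex I, assembly factors and all genes tested, with 1 symbol per library and the number of genes under each name. KO 2 had the highest median in each of the lists of respiratory genes, and all 5 libraries were within 0.014 to 0.024 over all genes tested.

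Among the 4 genes of complex II the median log2 fold change was 0.14, and the genes differed among themselves. Sdhb, which holds the iron-sulfur clusters, had a signal of 3596, 3403 and 3873 in WT, 6601 in KO 2 and 4764 in KO 3. Both KO libraries lay above WT (log2 fold change 0.63 ± 0.19 (SE), adjusted p = 0.0966). Sdhc, a membrane anchor, was at 2542, 2291 and 2669 in WT, 3420 in KO 2 and 2800 in KO 3 (0.31 ± 0.18, adjusted p = 0.285). Sdhd, the other anchor, was at 5122, 4127 and 5698 in WT, 5811 in KO 2 and 3575 in KO 3, and here KO 2 was the highest and KO 3 the lowest library. Sdha, the flavoprotein that oxidises succinate, ranged from 8904 to 10230 in WT, was at 10460 in KO 2 and at 8149 in KO 3 (log2 fold change -0.03 ± 0.18, adjusted p = 0.933). Its genotypes overlapped. The median of complex II was 0.35 in KO 2 and -0.02 in KO 3, so that its sign depends on KO 2.

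Complex III held the member with the lowest p. Uqcrq, a small membrane subunit, had a signal of 1874, 1480 and 1832 in WT, 5287 in KO 2 and 3940 in KO 3. Both KO libraries lay far above every WT library, and apart from Cox4i2, which is described below and has at most 20 reads in a library, no tested member had a higher fold change (log2 fold change 1.41 ± 0.20 (SE), adjusted p = 0.0815 by limma and 6.03e-07 by DESeq2). Uqcr11 was at 1557, 1222 and 1746 in WT, 3409 in KO 2 and 2184 in KO 3 (0.87 ± 0.25, adjusted p = 0.0896). Uqcrc1, a core subunit with no redox centre, was at 11180, 14000 and 12510 in WT and at 18680 and 19550 in KO 2 and KO 3 (0.61 ± 0.17, adjusted p = 0.09), and was, like Uqcrq, above every WT library in both KO libraries. Cyc1, the cytochrome c1 subunit that carries a heme, was at 6097, 5353 and 5957 in WT, 9549 in KO 2 and 7103 in KO 3 (0.51 ± 0.19, adjusted p = 0.129). Uqcrfs1, the Rieske iron-sulfur protein, was at 2979, 2521 and 3316 in WT, 5351 in KO 2 and 2974 in KO 3, and KO 3 thus lay within the WT range.

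Other genes of complex III went the opposite way in KO 3. Uqcrc2, the second core subunit, was at 3966, 3085 and 4120 in WT, 3484 in KO 2 and 1807 in KO 3 (log2 fold change -0.56 ± 0.28 (SE), adjusted p = 0.229). Uqcrb, a small subunit, was at 1758, 658 and 1107 in WT, 1177 in KO 2 and 328 in KO 3 (-0.80 ± 0.55, adjusted p = 0.362). KO 3 was the lowest library for both and KO 2 lay inside the WT range. For these genes 24.8% and 43.4% of the 50-base stretches of the transcript also occur in transcripts of other genes, which could add or remove reads. The median of complex III was 0.72 in KO 2 and 0.29 in KO 3, both above the WT libraries, which ran from -0.32 to 0.14. Once the trends of length and GC content described below were taken out, it was 0.53 in KO 2 and -0.1 in KO 3.

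Complex IV had a median of 0.49 over its 13 tested genes, 0.67 in KO 2 and 0.35 in KO 3. Under a filter of a mean signal of at least 100, which drops Cox4i2, it was 0.39 over 12 genes. With the trends of length and GC content described below taken out, the 13 genes had a median of 0.60 in KO 2 and 0.16 in KO 3. Cox8a, the common isoform of subunit 8, had a signal of 3809, 2898 and 3544 in WT, 7085 in KO 2 and 5897 in KO 3 (log2 fold change 0.93 ± 0.19 (SE), adjusted p = 0.0815). Cox5b was at 2443, 2027 and 2313 in WT and at 3943 and 3997 in KO 2 and KO 3 (0.82 ± 0.17, adjusted p = 0.0815), with nearly the same level in both KO libraries. For Cox5b, 25.9% of the 50-base stretches also occur in other transcripts. Cox6a1 was at 5348, 4387 and 5000 in WT, 9564 in KO 2 and 7504 in KO 3 (0.79 ± 0.18, adjusted p = 0.0815). In these genes neither KO library overlapped with WT. Cox7a2l, the supercomplex factor, was at 964, 761 and 841 in WT and at 1399 and 1376 in KO 2 and KO 3 (0.70 ± 0.20, adjusted p = 0.0891). Cox4i1, the common isoform of subunit 4, was at 7161, 5632 and 7287 in WT, 11720 in KO 2 and 8470 in KO 3 (0.58 ± 0.21, adjusted p = 0.123). Cox7a2, Cox7b, Cox6b1 and Cox6c had their highest library in KO 2 and lay below the WT mean in KO 3. Cox7b, for example, was at 1888, 978 and 1686 in WT, 2142 in KO 2 and 851 in KO 3 (-0.11 ± 0.41, adjusted p = 0.874), and Cox7a2 was at 2269, 1477 and 2110 in WT, 2892 in KO 2 and 1121 in KO 3 (-0.09 ± 0.38, adjusted p = 0.889). KO 3 was the lowest of the 5 libraries for both.

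The isoforms of muscle and brown fat were found in KO 2 and hardly elsewhere. Cox8b, whose promoter is printed above, had 0 reads in each WT library, 1792 reads in KO 2 (signal 1842) and 1 read in KO 3 (signal 1.52). Taking 3 reads per library as the floor, it was at least 707-fold higher in KO 2 than in any WT library, and KO 3 lay under the floor. Cox7a1 had 10 reads in the 3 WT libraries together (signal 1.67, 3.47 and 3.43), 476 reads in KO 2 (signal 489) and 0 reads in KO 3, which allows a signal of up to 4.56. The ratio of KO 2 to WT was 172 (95% exact interval for counting error only, 92.8 to 361). Per kilobase of transcript, Cox8b made up 28.4% of the summed level of the subunit 8 genes in KO 2 and 0.0393% in KO 3, and Cox7a1 made up 22.1% of Cox7a1 and Cox7a2 in KO 2 and 0.123% to 0.393% in WT. KO 3, of the same genotype as KO 2, lay with WT for both genes. Of the 6 brown adipocyte genes that are no members, Ucp1, Cidea and Otop1 were at 0 in all WT libraries and in KO 3 and at 5622, 3015 and 247 in KO 2, and Elovl3 was at 7.81 to 11.1 in WT, 202.5 in KO 2 and 0 in KO 3. The other genes of that list did not move with them: Dio2 was at 131 to 223 in WT and 181 in KO 2, and Ppargc1a was at 8.33 to 15.4 in WT and 3.08 in KO 2. The part that this RNA had in the signal of the common subunits in KO 2 was not tested. Over the 43 tested members, none of which is Cox8b or Cox7a1, the values for KO 3 alone are the ones without this library.

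**Figure D3:**
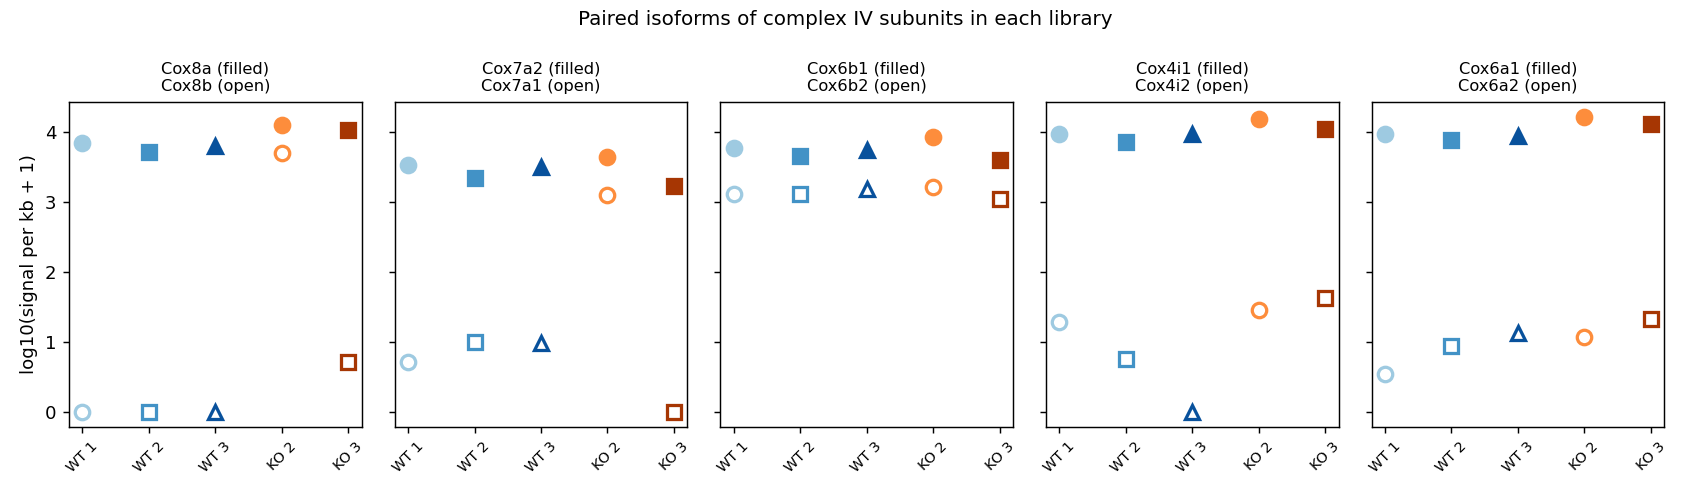
Level of paired complex IV isoforms in each library as log10(signal per kilobase of the longest annotated coding transcript + 1), with the common isoform as filled and the tissue-restricted isoform as open symbols. Cox8b and Cox7a1 approached their partners in KO 2 only (5117 and 1245 per kilobase), whereas Cox6b2 was close to its partner in every library.

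Among the other pairs, Cox6b2, known from testis, was detected in every library, at 756, 756 and 910 in WT, 950 in KO 2 and 656 in KO 3 (log2 fold change -0.03 ± 0.24 (SE), adjusted p = 0.95). It made up 18% to 22.2% of the subunit 6b level per kilobase in WT, 16.2% in KO 2 and 21.6% in KO 3. Its partner Cox6b1 was at 3644, 2799 and 3477 in WT, 5201 in KO 2 and 2518 in KO 3. Cox4i2, the isoform known from lung, was at 13.3, 3.47 and 0 in WT, 20.6 in KO 2 and 30.4 in KO 3, and thus at most 0.373% of the subunit 4 level. Cox6a2, the isoform of heart and skeletal muscle, was at 1.67, 5.21 and 8.57 in WT, 7.2 in KO 2 and 13.7 in KO 3. Its reads were 2 to 10 in WT, 7 in KO 2 and 9 in KO 3, low in every library. The list of 9 other muscle genes summed to 58.1 to 94.3 in WT, 93.5 in KO 2 and 267 in KO 3. Cox7b2 and Cox8c, both known from testis, had 0 reads in all 5 libraries.

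The 17 genes of complex V had a median log2 fold change of 0.27, with 0.39 in KO 2 and 0.09 in KO 3, where KO 3 lay inside the range of the WT libraries (-0.34 to 0.20). Once the trends of length and GC content were taken out, the median was 0.14. The alpha and beta subunits of the catalytic F1 part had the highest signal of all members. Atp5b, the beta subunit, had a signal of 34520, 32370 and 38910 in WT, 45870 in KO 2 and 35940 in KO 3 (log2 fold change 0.21 ± 0.20 (SE), adjusted p = 0.517). Atp5a1, the alpha subunit, was at 24310, 23700 and 25690 in WT and at 29870 and 29050 in KO 2 and KO 3 (0.26 ± 0.17, adjusted p = 0.334). The delta subunit of the same F1 part stood out from them. Atp5d was at 4724, 4646 and 4710 in WT, 8861 in KO 2 and 11210 in KO 3 (1.09 ± 0.17, adjusted p = 0.0815 by limma and 2.6e-06 by DESeq2). Its difference from WT was 0.92 in KO 2 and 1.26 in KO 3, so that, unlike in Uqcrq and Cox8a, KO 3 was the higher KO library.

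The c ring, through which the protons pass, is made from 3 genes that encode the same mature protein. Atp5g3 was at 5877, 3965 and 5011 in WT and at 5340 and 5194 in KO 2 and KO 3, inside the WT range. Atp5g1 was at 2777, 2364 and 2815 in WT, 3511 in KO 2 and 2890 in KO 3 (log2 fold change 0.27 ± 0.18 (SE), adjusted p = 0.357). Atp5g2 was at 434, 348 and 407 in WT and at 654 and 687 in KO 2 and KO 3 (0.76 ± 0.23, adjusted p = 0.0974). Atp5g2 was thus above WT in both KO libraries, while the more abundant Atp5g3 was not. Per kilobase, Atp5g3 made up 84.9% to 87.3% of the 3 genes in WT, 81.8% in KO 2 and 82.2% in KO 3, and Atp5g2 made up 6.37% to 7.37% in WT, 9.91% in KO 2 and 10.7% in KO 3. These shares divide Atp5g1 by its longest transcript of 4715 bases. As shares of signal, with no division by length, Atp5g3 made up 59.4% to 64.7% in WT, 56.2% in KO 2 and 59.2% in KO 3, level with WT 2, and Atp5g2 made up 4.77% to 5.21% in WT, 6.88% in KO 2 and 7.83% in KO 3. With the trend of length and GC content removed, the log2 fold change of Atp5g2 was -0.17, so that its direction depends on that correction.

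The lowest fold change of complex V belonged to Atp5s, at 422, 323 and 417 in WT, 314 in KO 2 and 193 in KO 3 (log2 fold change -0.64 ± 0.31 (SE), adjusted p = 0.211). Atp5s was the only tested member with both KO libraries below WT, and its sign turned once the trend of length and GC content was taken out (0.14). Atp5sl (Dmac2), related to it by name and sequence family, was higher in both KO libraries, at 550, 559 and 439 in WT against 762 and 810 (0.61 ± 0.22, adjusted p = 0.129). The 7 genes of the stalk and membrane part (Atp5f1, Atp5h, Atp5j, Atp5j2, Atp5k, Atp5l and Atp5o) had medians of 0.39 in KO 2 and -0.11 in KO 3. For Atp5l, 84.8% of the 50-base stretches also occur in other transcripts, so that its low signal of 191 to 359 is uncertain.

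The differences ran with the base composition of the transcripts, which is given here because it differed between libraries for all genes. Across the 43 members the difference of KO 3 from WT correlated with GC content at r = 0.59 (rho = 0.58) and that of KO 2 at r = 0.42 (rho = 0.45); these are correlations across genes, which are not independent replicates. Over the 13523 tested genes with an annotated transcript, rho was 0.58 in KO 3 and 0.55 in KO 2. The 5 members under 45% GC (Uqcrc2, Uqcrb, Cox7b, Cox7c and Atp5s) had a median of -0.99 in KO 3 and 0.12 in KO 2, where all genes of that class had -0.81 and -0.44. The 12 members of 55% GC or more, among them Uqcrc1, Uqcr11, Cox6a1, Cox8a, Atp5d and Atp5g2, had 0.58 in KO 3 and 0.85 in KO 2, where all genes had 0.73 and 0.37. Of the classes between them, the 12 members of 45% to 50% GC had 0.08 in KO 3 and 0.59 in KO 2, against -0.23 and -0.13 for all genes, and the 14 members of 50% to 55% GC had 0.009 and 0.57, against 0.20 and 0.12. In KO 2 the members thus lay above other genes of like GC content in all 4 classes, and in KO 3 they lay below them in all but the class of 45% to 50%. The part of base composition in the differences was not tested beyond the correction given next. The members are also short, with a median transcript length of 838 bases against 2996, and the 1012 tested genes under 1000 bases had medians of 0.35 in KO 2 and 0.20 in KO 3. With both trends removed in each library, the median of the members was 0.19 over KO, 0.45 in KO 2 and -0.02 in KO 3, and the median of complex III fell from 0.51 to 0.12. Uqcrq, of 50.2% GC, kept a log2 fold change of 1.44 and Cox5b, of 49% GC, had 0.95, whereas Cox8a had 0.36, Cox6a1 0.20 and Atp5d 0.43. Of the other members described above, Sdhb went from 0.63 to 0.32, Uqcr11 from 0.87 to 0.29, Cyc1 from 0.51 to 0.12, Uqcrc1 from 0.61 to 0.09 and Cox4i1 from 0.58 to 0.05, and the corrected difference of Uqcr11, Cyc1, Uqcrc1, Cox4i1 and Cox6a1 was below 0 in KO 3. Members below or near 0 moved too, with Uqcrb going from -0.80 to -0.14, Uqcrc2 from -0.56 to -0.10 and Cox6b2 from -0.03 to -0.38. In complex V, Atp5g1 went from 0.27 to 0.51, Atp5sl from 0.61 to 0.38 and Atp5b from 0.21 to 0.12. In the other complexes, Cox7a2l rose from 0.704 to 0.775, Uqcrfs1 from 0.45 to 0.605 and Sdhc from 0.31 to 0.425. Cox7c, the member of lowest GC among those tested and named after its values were seen, had 0.28 before and 1.23 after this correction.

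**Figure D4:**
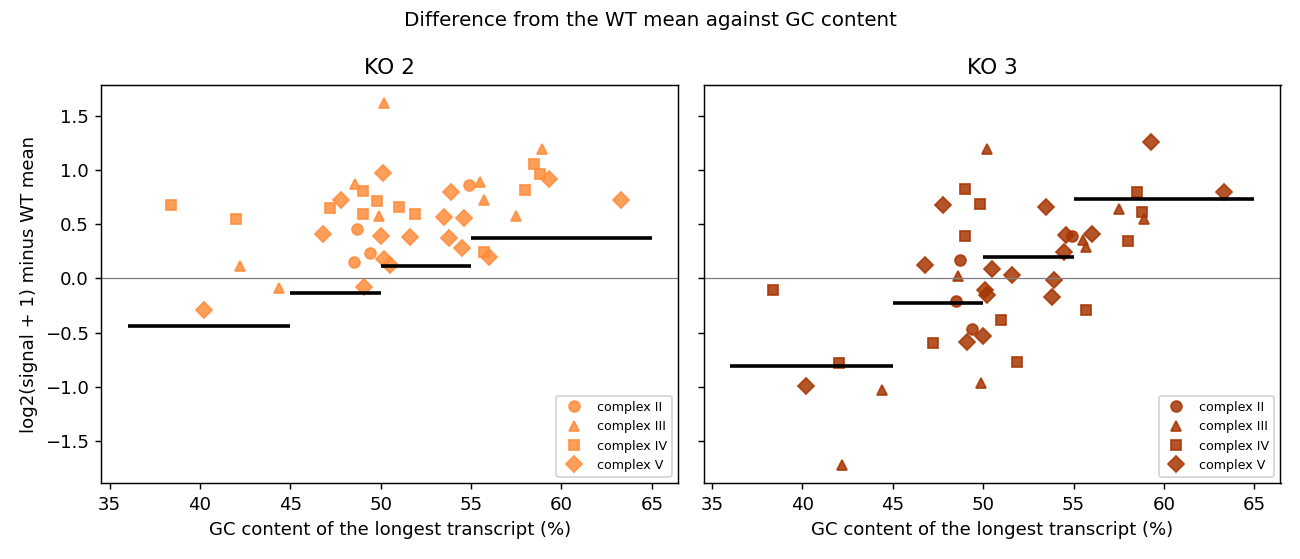
Difference of each tested member from its WT mean (log2 scale, vertical axis) against the GC content of its longest transcript in percent (horizontal axis) in KO 2 and KO 3, with symbols by complex and black bars for the median of all genes tested in 4 GC classes; Cox4i2 is left out. In KO 3 the members spread around the bars, and in KO 2 most lay above them.

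Other genes of the pathway were counted from lists. Of 43 tested genes of assembly factors of complexes II to V, with Atpif1, the inhibitor of the ATP synthase, among them, 28 had a log2 fold change above 0 and 15 below, with a median of 0.19; 0 passed at an adjusted p under 0.05, and before adjustment 11 were higher and 3 lower, where the shares over all genes tested were 13.3% and 14.5%. The gene with the lowest p was 1110001J03Rik (Fmc1), which assists assembly of the F1 part, at 576, 408 and 544 in WT, 982 in KO 2 and 1098 in KO 3 (log2 fold change 1.04 ± 0.24 (SE), adjusted p = 0.0815). Sdhaf1, which inserts the iron-sulfur clusters of Sdhb, was at 380, 365 and 315 in WT, 554 in KO 2 and 987 in KO 3 (1.07 ± 0.29, adjusted p = 0.0879). Both were higher in KO 3 than in KO 2. Uqcc2, a factor of complex III, had a log2 fold change of 0.74 ± 0.21 (adjusted p = 0.0891) and Cox14, a factor of complex IV, one of 0.71 ± 0.18 (adjusted p = 0.082). Once the trends of length and GC content were taken out, the log2 fold changes of 1110001J03Rik, Sdhaf1, Uqcc2 and Cox14 were 0.73, 1.04, 0.16 and 0.41. The 3 genes that were lower before adjustment, named after their values were seen, were Sdhaf2 (-0.66), Coa5 (-0.51) and Fastkd3 (-0.62). The 4 assembly factors of complex II had a median of -0.10, which turned to 0.48 once those trends were taken out, and the 6 genes of the complex V list (Atpif1 among them) were all above 0, with a median of 0.52 before and 0.65 after. Sdhaf2, which attaches the flavin of Sdha, was at 1091, 918 and 1035 in WT, 715 in KO 2 and 574 in KO 3. Cycs, the cytochrome c that links complexes III and IV, was at 1049, 562 and 888 in WT, 1107 in KO 2 and 448 in KO 3 (-0.19 ± 0.41, adjusted p = 0.776), with KO 3 the lowest and KO 2 the highest library.

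Of 16 regulators of mitochondrial biogenesis, 10 had a log2 fold change above 0 and 6 below, with a median of 0.07. Before adjustment 3 of the 16 were higher, near the share of 13.3% over all genes tested, and 0 were lower (14.5% over all genes), and 0 passed after it. Esrra, a nuclear receptor that activates respiratory chain genes, was at 519, 670 and 735 in WT, 1219 in KO 2 and 1069 in KO 3 (0.85 ± 0.23, adjusted p = 0.0865), and once the trend of length and GC content was taken out its log2 fold change was -0.009. Nrf1 (1759 to 2408 in WT, 2097 in KO 2, 2371 in KO 3) and Gabpa (1794 to 1984 in WT, 1604 in KO 2, 2257 in KO 3) had log2 fold changes of 0.07 ± 0.20 and 0.01 ± 0.20, and Yy1, at 361 to 427 in WT, 377 in KO 2 and 712 in KO 3, had 0.40 ± 0.31. The other genes of the list that were higher before adjustment, named after their values were seen, were Ppargc1b (309, 227 and 183 in WT, 388 in KO 2 and 673 in KO 3, log2 fold change 1.12 ± 0.35) and Polrmt (0.84 ± 0.24). Ppargc1a, the coactivator known from brown fat and muscle, was at 8.33 to 15.4 in WT, 3.08 in KO 2 and 18.2 in KO 3, and KO 2 was thus its lowest library. The 6 subunits of complexes III to V that mitochondrial DNA encodes had no row under their names and were not analysed here.

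Complex I, the entry point of electrons from NADH, had a median log2 fold change of 0.49 over 36 tested genes, and 0.32 once the trends of length and GC content were taken out, against 0.12 for complex III and 0.36 for complex IV. Its medians were 0.66 in KO 2 and 0.31 in KO 3, and before adjustment 16 of the 36 genes were higher and 1 lower (13.3% and 14.5% over all genes tested). Its lowest p was that of Ndufs7 (0.94 ± 0.16 (SE), adjusted p = 0.0815), whose log2 fold change was 0.27 once the trends of length and GC content were taken out. Whether complexes I to V differ from each other was not tested.

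In the level of expression per kilobase of the longest annotated coding transcript, the alpha and beta subunits of F1 led the WT libraries, with Atp5b at 18410 ± 1741 (SD, n = 3) and Atp5a1 at 9943 ± 411, while the other F1 genes Atp5e, Atp5d and Atp5c1 lay between 3296 and 3720. The next were Cox4i1 (8750 ± 1205), Cox6a1 (8602 ± 852) and Uqcrc1 (7601 ± 854), whose ranges of mean ± SD overlapped with their neighbours. Sdha (3250 ± 244) and Sdhb (3174 ± 207) stood at about the same level, while Sdhc, of the same complex, was at 788 ± 60.6. The common subunit of lowest level was Atp5l (399 ± 45.9), and Atp5s (242 ± 34.9) and Atp5sl (216 ± 28), which are no structural subunits, lay below it. Length enters these levels, and genes with several annotated transcripts are uncertain, such as Atp5g1 with lengths from 596 to 4715 bases and Uqcrq with 405 to 1521.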

How the data were processed

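The authors deposited 1 table of signal (read counts per gene symbol divided by a size factor of each library) for 5 bulk RNA libraries made with the SMART-Seq v4 low-input kit, and a table of their own fold changes and p-values, which was not used. The submitters' processing notes name STAR, featureCounts, DESeq2 and mm10, without roles or versions; the annotation and the use of strand are not given in the sources used here. All positive values were whole multiples of the smallest value of their column, and 100% gave whole reads within a relative tolerance of 1e-05, so that 3 reads correspond to a signal of 2.5 to 4.56. Intervals and floors cover counting error only, since the reads carry no molecular identifiers and may repeat a molecule. Library pairs differed by more than sampling noise.

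WT and KO were compared with limma (3.58.1, trended eBayes, R 4.3.3) on log2(signal + 1) over the 13661 genes with a signal of at least 10 in at least 2 libraries; fold changes are on this scale, which understates those of low genes. P-values were adjusted by Benjamini-Hochberg over all genes tested, with a threshold of 0.05. edgeR (4.0.16) and DESeq2 (1.42.0) were run on the recovered reads. The fits were tested on simulated data. Coordinates, lengths, GC content and shared 50-base stretches came from GENCODE M21 (mm10), and promoters from RefSeq.

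Values were named for complex II, the redox and core subunits of complex III, the isoform families, the c ring, Atp5a1 and Atp5b, the 3 lowest p-values and the lowest fold change of each complex, and the lowest p of each pathway list. Members and lists were chosen with earlier results of these data known, so no test over a list was made. Alternatives were another pseudocount, other filters, scalings and tools, a replicate block, removal of length and GC trends, and leaving out each library.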

Additional observations from a re-analysis of the deposited data

How the results depend on the processing

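The median log2 fold change of the members stayed above 0 under all alternatives run, from 0.13 without KO 2 to 0.59 without KO 3, with 0.48 under the replicate block and 0.19 once the trends of length and GC content were taken out. The count of members at an adjusted p under 0.05 was 0, except for 12 with DESeq2 (the 11 named and Cox8b, which the filter had left out) and 0 to 6 when a library was left out, where the 6 are those named without KO 2. The unadjusted count of 17, all higher, was 8 with the replicate block and 10 with the trends taken out. In KO 3 alone, 25 members lay above their WT mean and 18 below, against 6943 and 6718 of all genes tested. The 8 and the 10 were all higher; the share of all genes that was higher at an unadjusted p under 0.05 was 13.3%, 7.61% with the block and 7.2% with the trends taken out. Leaving out a library moved the median of complex II between -0.02 (without KO 2) and 0.35 (without KO 3), and taking out the trends moved that of complex III to 0.12 and that of complex V from 0.27 to 0.14. Deviations from the group means of libraries with the same replicate number correlated at -0.06 (WT 2 with KO 2) and -0.18 (WT 3 with KO 3). With KO 2 and KO 3 as the only KO libraries, their deviations mirror each other. The correlations therefore cannot show whether the numbers mark pairs. The block moved the calls over all genes from 1 to 6, with 0 of them among the members.

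The sign of Cox7a2 turned with edgeR (0.024), DESeq2 (0.041) and the replicate block (0.028), and that of Cox7b with the block (0.072). Taking out the trends turned Cox7b (0.55), Sdha (0.11), Atp5g2 (-0.17), Atp5a1 (-0.051), Atp5s (0.14), Cycs (0.52) and Esrra (-0.009). When each library was left out in turn, the log2 fold change ran from -0.21 to 0.15 for Sdha, -0.47 to 0.24 for Sdhd, -1.72 to 0.12 for Uqcrb, -0.38 to 0.66 for Cox6b1, -0.29 to 0.24 for Cox6b2, -0.78 to 0.59 for Cox7a2, -0.78 to 0.55 for Cox7b, -0.043 to 0.24 for Atp5g3 and -0.84 to 0.46 for Cycs. The highest value came without KO 3 in each of these genes except Atp5g3, where it came without WT 1. The cause of these turns was not tested. None of the 36 named genes was under the threshold in the main fit. All 36 kept their sign and side with the other pseudocount, TMM or upper-quartile scaling, and all genes that had a read. DESeq2 put 16 of the 36 under the threshold and turned the sign of 1.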
